A study of Mus musculus with 8 samples.

Results

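The sterol and fatty acid synthesis genes are a set of 30 genes, chosen by symbol for their known place in these pathways, with earlier results of these libraries known. They are 19 enzymes that build cholesterol from acetyl-CoA, 5 genes of the SREBP control system, the sterol carrier *Stard4*, and 5 enzymes that make or desaturate fatty acids. Of 25239 gene symbols counted, all 30 were found, and all 30 were among the 14249 genes with enough reads to be tested. RNA-Seq was available for whole E14.5 ovaries of C57BL/6 embryos. The control genotype, *Bmpr1a* fl/fl, gave 4 libraries. The *Bmpr1a*-cKO genotype, which carried *Oct4*-Cre (Cre/WT) on the same floxed background, gave the other 4. Each library pooled the ovaries of 2 embryos. Embryos of both genotypes were exposed in utero to 1 mg of 4-hydroxytamoxifen with 0.5 mg of progesterone, which the mother received daily from 9.5 to 11.5 dpc. The 8 embryos of each genotype were littermates from 6 litters, and the litter of each library is not given in the sources used here. Cre was driven by *Oct4* and was meant to remove *Bmpr1a* from germ cells alone, so the somatic cells of the same ovaries kept the receptor and were counted with them. In whole ovaries, fewer cells of a type and less RNA per cell cannot be told apart.

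Cholesterol is built from acetyl-CoA through mevalonate and farnesyl diphosphate to squalene, which is closed into lanosterol and then trimmed in many steps to cholesterol. The membrane-bound factors SREBP1 and SREBP2 (*Srebf1*, *Srebf2*) switch these enzymes and the fatty acid enzymes on when sterols are scarce. SCAP escorts them out of the endoplasmic reticulum, and the INSIG proteins hold them there. Growing and dividing cells need sterols and fatty acids for new membrane, and steroid-producing cells of the gonad also use cholesterol as the substrate for hormones.

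Upstream stretches are shown for 5 picked genes, and those of the other genes, among them *Scap*, are not shown. *Lbr*, *Pmvk*, *Mvd* and *Fasn* are 4 of the 12 genes whose RNA rose in *Bmpr1a*-cKO ovaries. *Hmgcs1* held the only match to the sterol regulatory element. Each stretch shown is the 140 bases before the RefSeq start site (GRCm38.p6), 5′ to 3′ on the strand of the gene, with no annotated exon in it. That of *Lbr* lies inside the GENCODE span of the gene (chr1:181815335-181843046), and those of the other genes shown lie outside theirs. Capitals mark the CCAAT box, read as CCAAT or, on the other strand, as ATTGG, and in *Hmgcs1* also the sterol regulatory element in the form TCACNCCAC. The stretches lie at chr1:181842402-181842541 on the minus strand for *Lbr*, chr3:89454401-89454540 on the plus strand for *Pmvk*, chr8:122443423-122443562 on the minus strand for *Mvd*, chr11:120824548-120824687 on the minus strand for *Fasn* and chr13:119690211-119690350 on the plus strand for *Hmgcs1*.
Lbr: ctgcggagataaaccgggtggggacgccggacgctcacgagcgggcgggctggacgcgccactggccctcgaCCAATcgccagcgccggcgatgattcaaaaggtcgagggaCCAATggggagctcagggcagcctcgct
Pmvk: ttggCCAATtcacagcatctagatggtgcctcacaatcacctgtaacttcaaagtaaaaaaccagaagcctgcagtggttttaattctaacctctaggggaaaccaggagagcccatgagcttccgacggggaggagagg
Mvd: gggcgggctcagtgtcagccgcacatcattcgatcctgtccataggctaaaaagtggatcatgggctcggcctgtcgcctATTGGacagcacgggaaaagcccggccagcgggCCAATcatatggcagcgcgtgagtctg
Fasn: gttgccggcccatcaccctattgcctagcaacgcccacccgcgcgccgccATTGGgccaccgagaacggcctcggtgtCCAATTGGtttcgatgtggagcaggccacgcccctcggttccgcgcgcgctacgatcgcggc
Hmgcs1: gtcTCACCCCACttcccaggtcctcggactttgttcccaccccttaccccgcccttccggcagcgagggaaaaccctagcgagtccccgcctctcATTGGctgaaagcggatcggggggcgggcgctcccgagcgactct

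In these stretches *Lbr* and *Mvd* each held 2 CCAAT boxes, *Fasn* held 3, of which 2 overlapped, and *Pmvk* and *Hmgcs1* held 1 each. RefSeq windows of 300 bases, 250 before and 50 after a start site, were matched by symbol for 23 of the 30 genes. The 7 others were *Fdps*, *Fdft1*, *Sqle*, *Stard4*, *Scd1*, *Scd2* and *Fads1*. A CCAAT box on either strand was found for 20 of 23 genes (87.0%), against 43.1% of the 11262 tested genes with a window and 37.4% of all 32851 windows. The GC box GGGCGG on either strand was found for 21 of 23 genes (91.3%, against 68.3% of tested genes with a window). The E-box CACGTG was found for 5 of 23 (21.7%, against 11.5%) and TCACNCCAC for 1 of 23 (4.35%, against 1.39%). The 9 genes with a window whose RNA rose in *Bmpr1a*-cKO ovaries all had a CCAAT box, as did 11 of the 12 that did not pass the test. Neither of the 2 that fell and had a window (*Scap* and *Fads2*) had one, and 2 genes are too few to tie the motif to direction. These are matches of letters and not measured binding, and no test was made on them.

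The comparison asked whether these genes differed between ovaries whose germ cells were to lose *Bmpr1a* and control ovaries. In *Bmpr1a*-cKO ovaries the RNA of 12 of the 30 genes rose and that of 3 fell (false discovery rate, FDR, below 0.05; edgeR, two-sided quasi-likelihood F test, adjusted over all 14249 genes). The genes that rose were the cholesterol enzymes *Pmvk*, *Mvd*, *Fdft1*, *Sqle*, *Cyp51*, *Lbr*, *Msmo1* and *Dhcr7*, the factors *Srebf1* and *Srebf2*, and the fatty acid enzymes *Fasn* and *Scd1*. Those that fell were the escort gene *Scap* and the desaturases *Fads1* and *Fads2*. The differences were modest, with a log2 fold change (Log2FC, cKO over control) of −0.36 to 0.69.

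Against the background of all tested genes, 50% of the set passed the test where 29.8% of all genes did. The share that rose was 40% (12 of 30) against 17.3% of all genes, and the share that fell was 10% (3 of 30) against 12.5%. DEGs, defined by an absolute Log2FC above 0.5 as well as the FDR, numbered 2 of 30 (6.67%, *Pmvk* and *Lbr*) against 10.2% of all genes. In 12 of 30 genes (40%) the 4 cKO libraries did not overlap the 4 control libraries, against 27.9% of all genes, with 9 lying above and 3 below. The median Log2FC was 0.17 over the set and −0.004 over all genes, and 23 of the 30 values were positive.

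The calls of 10 of the 15 genes held whichever library was left out, and those of *Srebf1*, *Fasn*, *Scd1*, *Fads1* and *Fads2* did not, as given at each gene. When libraries were scaled by the germ cell marker genes in place of all genes, the 15 genes kept their sign but only *Lbr* was called, with 8.16% of all genes called. When they were scaled by library size alone, 11 genes were called higher and 3 lower, while the higher calls made up 43.1% of all calls and not 58.0%.

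**Figure D1:**
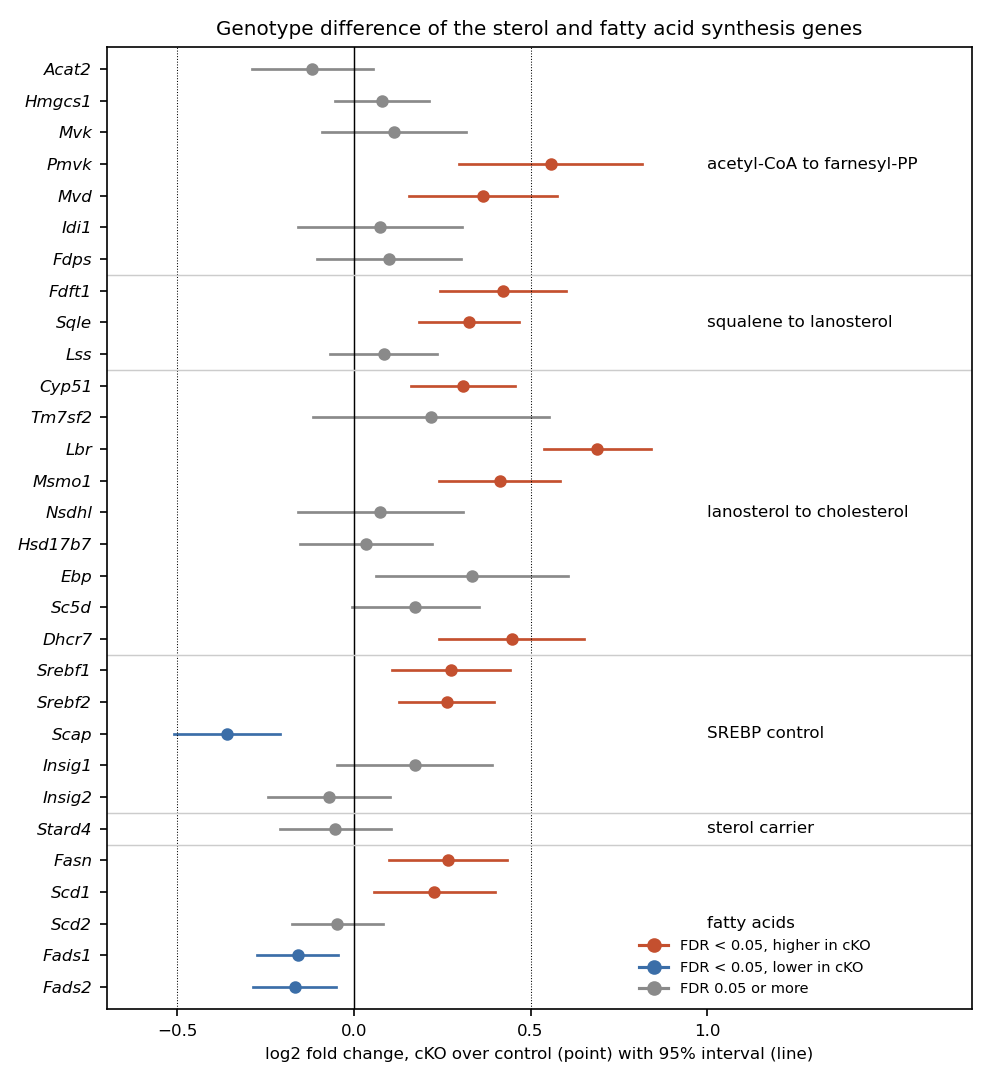
The Log2FC of cKO over control (points) with its 95% interval (lines) is drawn on the x axis for each of the 30 genes, ordered by their place in the pathway from top to bottom. Red marks the 12 genes called higher, blue the 3 called lower and grey the 15 that did not pass the test, and dotted lines mark the DEG limits of 0.5 either way. In the block from lanosterol to cholesterol all 9 points lie to the right of 0, though *Hsd17b7* and *Nsdhl* lie near it and turned in some alternatives.

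The first arm, from acetyl-CoA to farnesyl diphosphate, held 7 genes, of which 2 rose and none fell (median Log2FC 0.099). The share that rose was 28.6%, against 17.3% of all genes, and 12.5% of all genes fell. The share called in either direction, also 28.6%, was near the 29.8% of all genes. *Pmvk* (chr3:89454541-89469013, mm10), the kinase that adds the second phosphate to mevalonate, measured 8.22, 9.56, 7.49 and 7.83 CPM (counts on a common, TMM-scaled library size) in control libraries 1 to 4 and 10.8, 14.1, 12.0 and 11.4 CPM in cKO libraries 1 to 4. The genotypes did not overlap, the lowest cKO library standing above the highest control. Its Log2FC was 0.56 ± 0.122 (SE; FDR 0.00295), the second highest of the set. Without cKO library 2, its highest, the Log2FC was 0.47 (FDR 0.0186), and *Pmvk* was then no DEG.

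*Mvd* (chr8:122433601-122443422), the decarboxylase that then forms isopentenyl diphosphate, measured 17.0, 14.1, 18.3 and 16.3 CPM in control and 22.7, 22.3, 18.4 and 21.2 CPM in cKO libraries. The lowest cKO library lay just above the highest control library. Its Log2FC was 0.37 ± 0.098 (SE; FDR 0.0112). The other 5 enzymes of the arm did not pass the test. Their Log2FC were −0.12 for *Acat2* (cytosolic thiolase, FDR 0.297), 0.079 for *Hmgcs1* (HMG-CoA synthase, FDR 0.371), 0.11 for *Mvk* (mevalonate kinase, FDR 0.411), 0.073 for *Idi1* (the isomerase of isopentenyl diphosphate, FDR 0.662) and 0.099 for *Fdps* (farnesyl diphosphate synthase, FDR 0.474). *Hmgcs1*, the gene of this arm with the highest level per length, measured 203.8, 236.2, 214.3 and 214.2 CPM in control and 227.1, 245.7, 216.7 and 227.5 CPM in cKO libraries, and the genotypes overlapped. The 95% interval of its Log2FC was −0.053 to 0.21.

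Of the 3 enzymes from squalene to lanosterol, 2 rose (66.7%, against 17.3% of all genes), with a median Log2FC of 0.33. *Fdft1* (chr14:63145150-63179578), squalene synthase, which commits farnesyl diphosphate to sterols, measured 50.2, 51.4, 62.3 and 46.6 CPM in control and 68.6, 75.9, 69.2 and 67.3 CPM in cKO libraries. All cKO libraries stood above all controls, and control library 3 was the highest of its genotype. The Log2FC was 0.42 ± 0.084 (SE; FDR 0.00145), and 0.51 without control library 3, which would make *Fdft1* a DEG. Part of its exons overlap *Ctsb* on the opposite strand.

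*Sqle* (chr15:59315077-59331192), squalene epoxidase, measured 75.1, 74.9, 76.4 and 67.0 CPM in control and 86.3, 98.2, 95.1 and 87.7 CPM in cKO libraries. Again no library overlapped the other genotype, and the Log2FC was 0.33 ± 0.066 (SE; FDR 0.00175). *Lss*, which closes the ring to lanosterol, had a Log2FC of 0.084 (95% interval −0.068 to 0.24, FDR 0.412).

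From lanosterol to cholesterol, 4 of 9 enzymes rose (44.4%, against 17.3% of all genes). The 9 Log2FC were all positive (median 0.31), except that *Hsd17b7* and *Nsdhl* turned in some alternatives, as given with them. *Lbr* (chr1:181815335-181843046) showed the largest difference of the 30 genes. It encodes the lamin B receptor, a protein of the inner nuclear membrane that is also a sterol reductase. Control libraries measured 104.0, 100.2, 102.6 and 93.5 CPM, and cKO libraries 137.7, 168.7, 169.3 and 168.2 CPM. The cKO libraries were far above the controls, with library 1 set apart from the other 3, which lay close together. The Log2FC was 0.69 ± 0.071 (SE; 1.61-fold, FDR 5.33e-06). Its exons overlap *Dnah14* on the opposite strand and the small gene *Gm26004* on its own.

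*Cyp51* (chr5:4081145-4104746), the demethylase that opens this stage, measured 50.6, 58.7, 57.2 and 53.9 CPM in control and 61.9, 70.9, 70.2 and 69.1 CPM in cKO libraries. The genotypes did not overlap, and the Log2FC was 0.31 ± 0.069 (SE; FDR 0.00363). Some of its exons overlap *Akap9* on the opposite strand. *Msmo1* (chr8:64718139-64733792), a methyl sterol oxidase, measured 27.5, 31.3, 28.2 and 26.5 CPM in control and 33.7, 41.1, 36.3 and 38.9 CPM in cKO libraries. It too was higher in every cKO library than in any control, by a Log2FC of 0.41 ± 0.081 (SE; FDR 0.00133).

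*Dhcr7* (chr7:143823145-143848410), the reductase of the last step, measured 40.5, 48.7, 52.4 and 39.7 CPM in control and 52.1, 66.0, 64.8 and 62.4 CPM in cKO libraries. Here cKO library 1 fell just under control library 3, so the genotypes overlapped, although the gene rose (Log2FC 0.45 ± 0.097, SE; FDR 0.00282). Without control library 3 its Log2FC was 0.52, past the DEG limit. *Ebp*, a sterol isomerase, measured 8.14, 7.17, 8.43 and 7.45 CPM in control and 8.35, 9.30, 11.9 and 9.69 CPM in cKO libraries. Its Log2FC of 0.33 ± 0.128 (SE; FDR 0.0621) missed the threshold. With the same 8 libraries it passed by edgeR's likelihood ratio test (FDR 0.0454) and with the replicate number as a block (FDR 0.0486), and it also passed without cKO library 1 (0.39, FDR 0.0294).

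The other enzymes of this stage did not pass the test. Their Log2FC were 0.22 for *Tm7sf2*, a reductase that shares its reaction with *Lbr* (FDR 0.328), 0.17 for the desaturase *Sc5d* (FDR 0.142), 0.074 for the dehydrogenase *Nsdhl* (FDR 0.659) and 0.034 for the ketoreductase *Hsd17b7* (FDR 0.81). For *Hsd17b7* the sign turned under library size scaling (−0.018), under germ cell marker scaling (−0.016) and without control library 2 (−0.012) or 4 (−0.003), and for *Nsdhl* without control library 1 (−0.001). *Tm7sf2* was the least abundant of the 30 genes, with 55 reads in its lowest library, and shares exon sequence with *Vps51*. The pair of reductases thus gave intervals of 0.54 to 0.84 for *Lbr* and −0.12 to 0.55 for *Tm7sf2*, and the difference between them was not tested.

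Over the 19 cholesterol enzymes, 8 rose (42.1%, against 17.3% of all genes) and 0 fell (against 12.5%), and 18 of the 19 Log2FC were positive. Under library size or germ cell marker scaling and without control library 1 or 2 this was 17, and without control library 4 it was 16, the lowest of the alternatives, where *Fdps* (−0.002) and *Hsd17b7* turned. By unadjusted p below 0.05, 9 were higher and 0 lower, and limma-voom, DESeq2 and edgeR's likelihood ratio test also called none lower. Summed per length (CPM per kb of exon), the 19 genes came to 209.8 ± 11.6 in control and 247.4 ± 12.7 in cKO libraries (SD, n = 4), a ratio of 1.18. The ratio of summed levels was 1.07 in the arm to farnesyl diphosphate, 1.27 from squalene to lanosterol and 1.34 from lanosterol to cholesterol. These sums were not tested and rest most on the abundant genes, which in the last stage is *Lbr*.

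**Figure D2:**
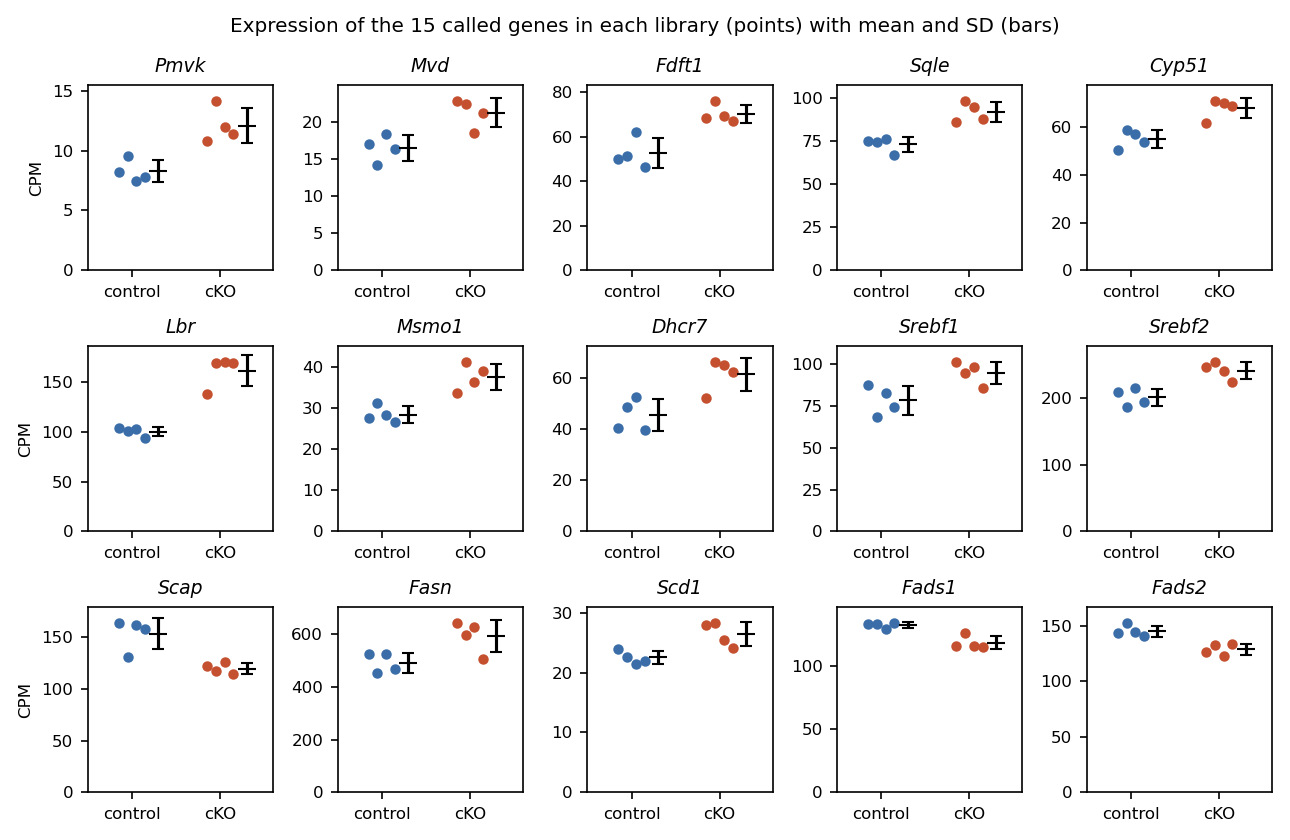
CPM (y axes, from 0) is drawn for each of the 15 genes that passed the test, with 1 point per library for control (blue) and cKO (red) and bars for the mean and SD of 4 libraries. In *Lbr*, 3 of the cKO points lie between 168.2 and 169.3 CPM with the other at 137.7, and in *Scap*, *Fads1* and *Fads2* the cKO points lie below the controls.

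Of the 5 SREBP control genes, 2 rose (40%, against 17.3% of all genes) and 1 fell (20%, against 12.5%). *Srebf2* (chr15:82147181-82205379), whose product acts mainly on cholesterol genes, measured 209.0, 187.5, 215.0 and 194.1 CPM in control and 246.8, 253.9, 241.6 and 223.8 CPM in cKO libraries. The genotypes did not overlap, and the Log2FC was 0.26 ± 0.063 (SE; FDR 0.00545). *Srebf1* (chr11:60199089-60222581), whose product acts mainly on fatty acid genes, measured 87.2, 68.3, 83.0 and 74.5 CPM in control and 101.0, 94.4, 98.0 and 86.0 CPM in cKO libraries. The lowest cKO library lay under the highest control, and the Log2FC was 0.28 ± 0.079 (SE; FDR 0.0161). Its exons overlap *Rai1* on the opposite strand. The call of *Srebf1* was lost without control library 4 (Log2FC 0.24, FDR 0.062) and without cKO library 3 (0.26, FDR 0.0501).

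*Scap* (chr9:110333288-110384950), the escort and sterol sensor without which neither SREBP is processed, moved the other way. It measured 163.0, 131.0, 161.4 and 157.3 CPM in control and 121.6, 116.8, 125.4 and 114.2 CPM in cKO libraries. Every cKO library was below every control, and the Log2FC was −0.36 ± 0.071 (SE; FDR 0.0014), the lowest of the 30 genes. Leaving out control library 2, the lowest control, gave −0.44. Exons of *Scap* overlap *5830462I19Rik* on the opposite strand. The retention genes did not pass the test, with a Log2FC of 0.17 for *Insig1* (95% interval −0.048 to 0.39, FDR 0.235) and −0.071 for *Insig2* (−0.25 to 0.10, FDR 0.554). The sterol carrier *Stard4* had a Log2FC of −0.053 (−0.21 to 0.11, FDR 0.641).

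Among the 5 fatty acid enzymes, 2 rose (40%, against 17.3% of all genes) and 2 fell (40%, against 12.5%). The summed level per length of the 5 had a ratio of 0.992. *Fasn* (chr11:120805846-120824547), fatty acid synthase, measured 521.8, 450.1, 524.5 and 467.6 CPM in control and 638.8, 595.3, 624.0 and 503.3 CPM in cKO libraries. The genotypes overlapped in cKO library 4, the lowest of its genotype, and the Log2FC was 0.27 ± 0.079 (SE; FDR 0.0192). The call was lost without control library 2 (0.22, FDR 0.0609), control library 4 (0.23, FDR 0.0676), cKO library 2 (0.26, FDR 0.0521) or cKO library 3 (0.24, FDR 0.0663).

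*Scd1* (chr19:44394455-44407879), which sets the first unsaturated bond into saturated chains, measured 24.0, 22.6, 21.5 and 22.0 CPM in control and 28.0, 28.2, 25.4 and 24.1 CPM in cKO libraries. The genotypes met almost at the same value without overlapping, and the Log2FC was 0.23 ± 0.080 (SE; FDR 0.0443). Among the 15 calls this was the one nearest the threshold. It was lost without cKO library 1 (0.20, FDR 0.0752), 2 (0.19, FDR 0.148) or 3 (0.24, FDR 0.0651), and without control library 2 (0.22, FDR 0.0727), 3 (0.20, FDR 0.107) or 4 (0.21, FDR 0.117). It was also lost with DESeq2 (0.22, FDR 0.105).

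*Scd2*, the related desaturase, measured 647.9, 709.5, 636.2 and 672.3 CPM in control and 686.0, 650.7, 612.3 and 630.5 CPM in cKO libraries. The genotypes overlapped and the Log2FC was −0.048 (95% interval −0.18 to 0.081, FDR 0.597). The interval of *Scd2* thus ended at 0.081 and that of *Scd1* began at 0.056, and the difference between these genes was not tested.

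The desaturases of polyunsaturated fatty acids, *Fads1* and *Fads2*, are neighbours on chromosome 19 and fell together. *Fads1* (chr19:10182888-10196877) measured 133.4, 133.4, 128.9 and 133.7 CPM in control and 116.1, 126.1, 116.0 and 115.4 CPM in cKO libraries. *Fads2* (chr19:10062765-10101746) measured 143.1, 152.1, 144.8 and 140.4 CPM in control and 126.7, 133.0, 123.2 and 133.2 CPM in cKO libraries. In both genes every cKO library was below every control. The Log2FC was −0.16 ± 0.054 for *Fads1* (SE; FDR 0.0377) and −0.17 ± 0.055 for *Fads2* (SE; FDR 0.0323). These calls lay near the threshold. That of *Fads1* was lost without control library 1 (−0.16, FDR 0.0844) or 4 (−0.16, FDR 0.0691) and without cKO library 3 (−0.15, FDR 0.102) or 4 (−0.15, FDR 0.0901). That of *Fads2* was lost without control library 1 (−0.18, FDR 0.0583) or 2 (−0.15, FDR 0.0564) and without cKO library 2 (−0.18, FDR 0.0581) or 3 (−0.15, FDR 0.106).

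Levels were compared between genes per length, as CPM per kb of exon. *Scd2* stood first in control ovaries at 122.0 ± 5.93 (SD, n = 4), well apart from *Hmgcs1* at 47.3 ± 2.96, *Fasn* at 44.9 ± 3.45 and *Fads2* at 44.0 ± 1.52, whose order lay within their spread. *Srebf2* followed at 28.0 ± 1.78. At the other end were *Lss* at 3.26 ± 0.239 and *Tm7sf2* at 1.67 ± 0.331. The sterol desaturase *Sc5d* and the isomerase *Ebp* were also among the 4 lowest. The place of *Lss* depended on the length used. It ranked 29 of 30 by the union of exons and 25 by the longest transcript, where *Tm7sf2*, *Sc5d* and *Ebp* stayed among the 4 lowest. Of the 30 genes, 21 had a level above the median of all tested genes, 6.22 CPM per kb over the 8 libraries. The abundant *Scd2* was therefore present at many times the level of *Scd1* (4.61 ± 0.218), and *Lbr* (21.0 ± 0.974 in control) at many times that of *Tm7sf2*.

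**Figure D3:**
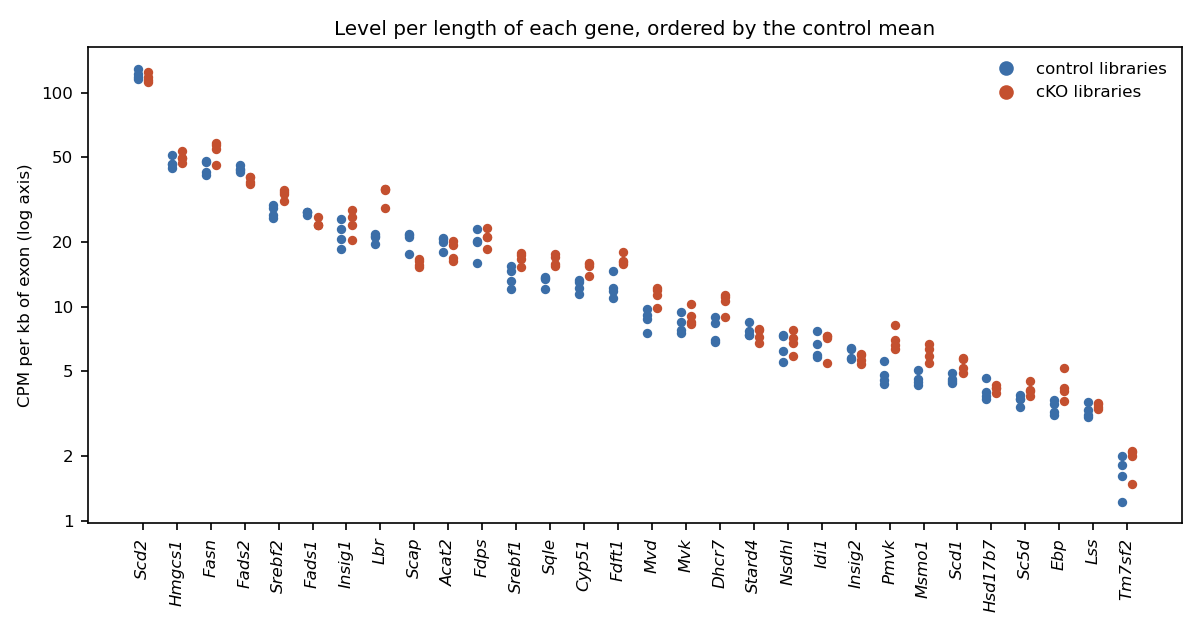
The level of each gene as CPM per kb of exon is drawn on a log y axis, with 1 point per library for control (blue) and cKO (red), and the genes are ordered along the x axis by the control mean. *Scd2* stands highest at 122.0 and *Tm7sf2* lowest at 1.67, and *Lbr* and *Pmvk* show the widest gap between the genotypes.

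Within a genotype, some libraries held many of the highest or lowest values. Of the control libraries, library 3 was the highest for 14 of the 30 genes, where it was the highest for 28.9% of all tested genes, and for the 3 enzymes from squalene to lanosterol it was the highest in each. Of the cKO libraries, library 1 was the lowest for 15 of the 30 genes and for 8 of the 9 from lanosterol to cholesterol, where it was the lowest for 34.0% of all genes. It was also the shallowest library. Library 2 lay above the mean of the cKO libraries for 26 of the 30 genes, where it did so for 51.6% of all tested genes. The mean deviation in log2(CPM + 0.5) over the 9 enzymes from lanosterol to cholesterol was −0.18 in cKO library 1 and 0.12 in control library 3. The genes of 1 library share its animals, depth and preparation, and no test was made on these counts.

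**Figure D4:**
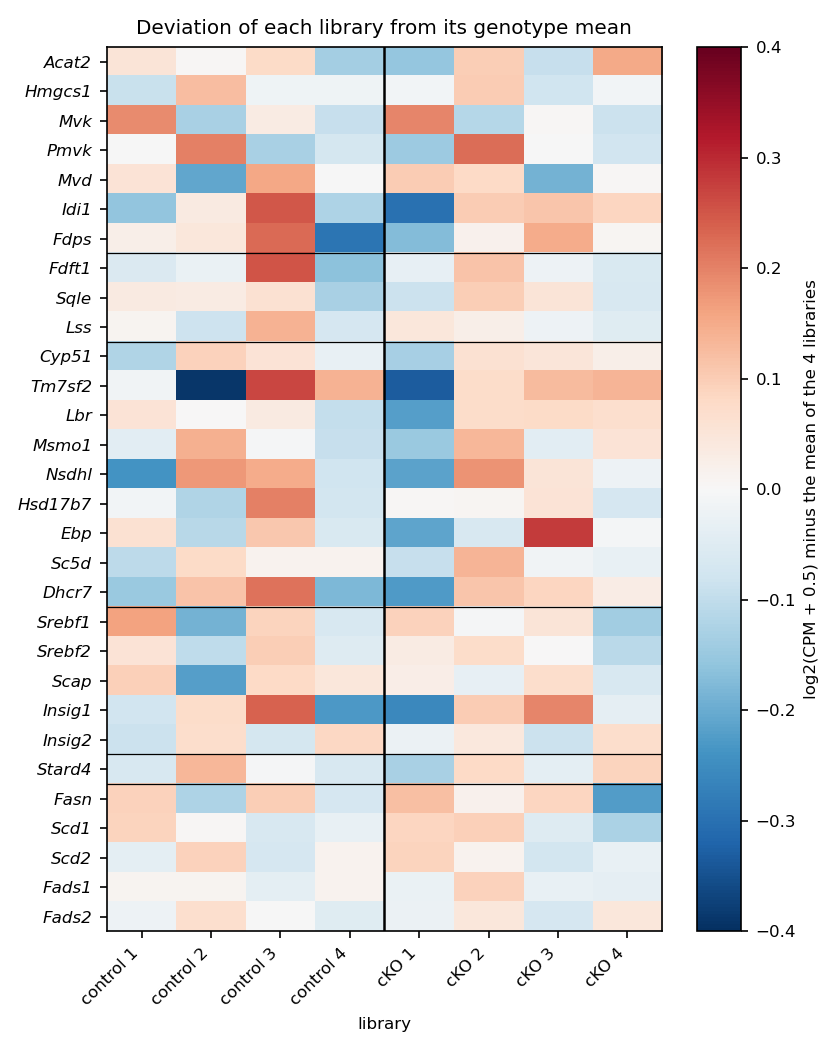
Each cell of the map is the log2(CPM + 0.5) of 1 gene (y axis, pathway order) in 1 library (x axis) minus the mean of the 4 libraries of its genotype, with red above and blue below the mean. In the column of cKO 1, 8 of the 9 genes from *Cyp51* to *Dhcr7* have the lowest value of their genotype, and the column of control 3 is mostly red from *Idi1* to *Dhcr7*.

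The other genes of these pathways were taken from 4 lists, of which 64 genes were tested. In all, 17 of them passed the test (26.6%, against 29.8% of all genes), with 13 higher and 4 lower, and their median Log2FC was 0.021. Of 9 other isoprenoid and sterol enzymes, 2 rose (22.2%, against 17.3% of all genes) and 1 fell (11.1%, against 12.5%), with a median Log2FC of 0.063. *Pdss1*, which makes the tail of ubiquinone, rose by 0.67 (FDR 0.000257). *Cyb5b*, a cytochrome that passes electrons, rose by 0.19 (FDR 0.0354). The gene that fell was *Por*, the electron donor of CYP51 and SQLE (−0.28, FDR 0.0051). Leaving out any 1 of control libraries 1, 3 and 4 or of cKO libraries 2 and 4 cost *Cyb5b* its call (FDR up to 0.119), as did library size scaling (FDR 0.146).

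Among 12 genes of SREBP processing, turnover and the LXR receptors, 5 rose (41.7%, against 17.3% of all genes) and 0 fell (against 12.5%). The median Log2FC was 0.14. Those that rose are named here. They were *Rnf145* (0.34, FDR 0.000217), a ubiquitin ligase of the endoplasmic reticulum, *Nr1h2* (0.32, FDR 0.00993), which encodes LXRβ, *Erlin1* (0.28, FDR 0.0104), and *Mbtps1* (0.19, FDR 0.0122) and *Mbtps2* (0.32, FDR 0.0385), the Golgi proteases that cut SREBPs free. By unadjusted p below 0.05 none was lower, and the likelihood ratio test, limma-voom and DESeq2 called none lower. The call of *Mbtps2* was lost without any 1 of control libraries 1, 3 and 4 or of cKO libraries 2, 3 and 4 (FDR up to 0.138) and that of *Erlin1* without cKO library 4 (FDR 0.0523). Library size scaling cost both proteases their calls (FDR 0.0656 for *Mbtps1* and 0.0905 for *Mbtps2*), and *Mbtps2* was not called by DESeq2 either (FDR 0.0539).

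Of 17 tested genes of sterol uptake, storage and efflux, 3 rose and 0 fell, and the median Log2FC was −0.090. The share that rose, 17.6%, was near the 17.3% of all genes. The share called in either direction, also 17.6%, was below the 29.8% of all genes. *Abcg1*, a sterol exporter, rose by 0.88 (FDR 9.09e-05), with 15.9 to 24.9 CPM in control and 29.2 to 37.1 CPM in cKO libraries. *Apoe*, which carries lipids outside cells, rose by 0.30 (FDR 0.00722), and the lipoprotein receptor *Lrp8* by 0.32 (FDR 0.0462). By unadjusted p below 0.05, 2 genes of this list were lower, and the likelihood ratio test, limma-voom and DESeq2 called none lower. These were *Npc1*, which moves cholesterol out of lysosomes (−0.15, FDR 0.0716), and the exporter *Abca1* (−0.14, FDR 0.104), both named after their values were seen. Under library size scaling both were called lower (−0.20, FDR 0.0212 and −0.20, FDR 0.0343), and *Npc1* also without cKO library 1 (−0.18, FDR 0.0271). Among the fits that left out 1 library, *Lrp8* kept its call only when control library 1 was the one left out, with an FDR of 0.0569 to 0.133 without any 1 of the 7 others, and it lost the call under DESeq2, RLE scaling, library size scaling, no low-count filter and without *Rn45s* (FDR 0.0517 to 0.119).

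In the list of 26 tested genes of fatty acid supply, elongation and activation, 3 rose (11.5%, against 17.3% of all genes) and 3 fell (11.5%, against 12.5%). *Elovl6*, which lengthens saturated chains, rose by 0.92 (1.89-fold, FDR 1.31e-06), from 38.9 to 45.6 CPM in control to 68.0 to 88.4 CPM in cKO libraries. *Acsl3*, which activates fatty acids, rose by 0.54 (FDR 0.000414), and the elongation enzyme *Hsd17b12* by 0.21 (FDR 0.0351). *Acss2*, which makes acetyl-CoA from acetate, fell by 0.91 (FDR 4.98e-05), from 28.9 to 41.1 CPM in control to 15.4 to 22.4 CPM in cKO libraries. *Lpin1*, a phosphatase of lipid assembly, fell by 0.47 (FDR 0.000897), and the citrate carrier *Slc25a1* by 0.21 (FDR 0.0278). *Acaca*, acetyl-CoA carboxylase, had a Log2FC of −0.19 (FDR 0.0524) and was called lower in 9 alternatives, among them the likelihood ratio test (FDR 0.0401), DESeq2 (FDR 0.03) and library size scaling (FDR 0.0167). The elongase *Elovl1* (−0.23, FDR 0.0814) was called lower under library size scaling, with the replicate block and without control library 3 or cKO library 1 (FDR 0.0325 to 0.0397). Both were named after their values were seen. The call of *Hsd17b12* was lost without any 1 of control libraries 1 and 4 or of cKO libraries 2, 3 and 4 (FDR up to 0.145) and under DESeq2, library size scaling and no low-count filter (FDR 0.051 to 0.112), and that of *Slc25a1* without any 1 of control libraries 1 and 3 or of cKO libraries 2 and 3 (FDR up to 0.0923).

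**Figure D5:**
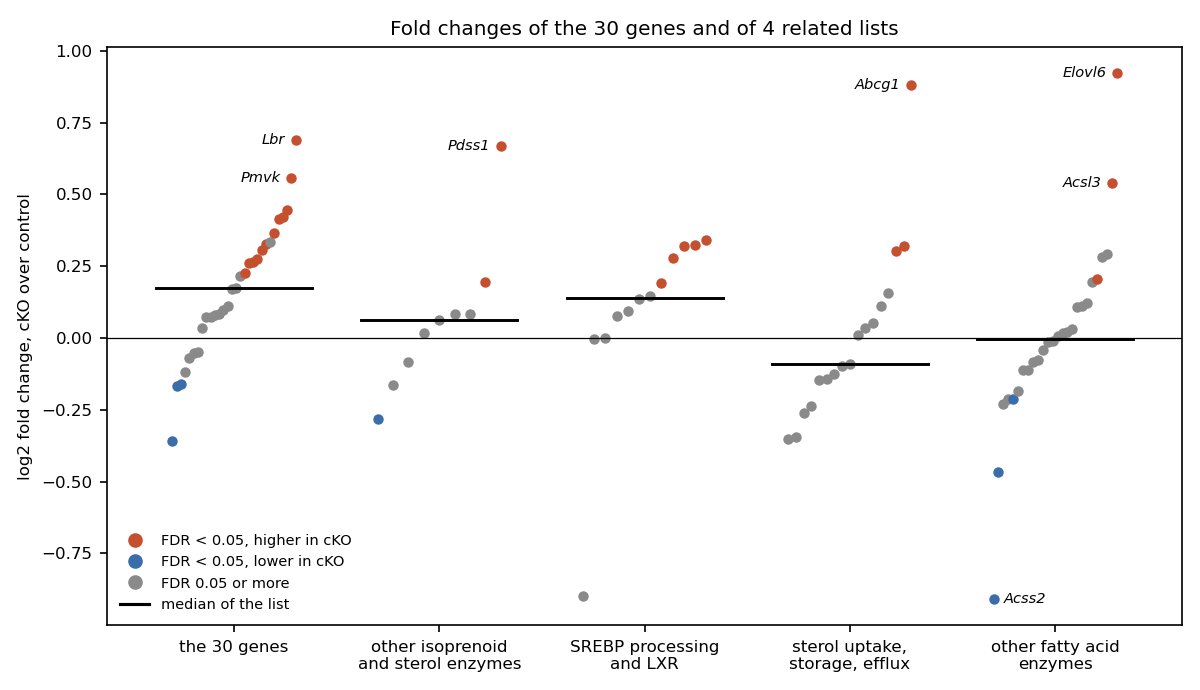
Log2FC (y axis) is drawn for each of the 30 genes and of the genes tested from 4 related lists, sorted within each list, with a bar at the median and the DEGs named. The median of the 30 genes is 0.17 and those of the lists are 0.063, 0.14, −0.090 and −0.003 from left to right. The lowest point of the SREBP list is *Nr1h3* at −0.90 (FDR 0.153), a gene of at most 1.89 CPM, named here after its values were seen.

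Markers of some of the cell types in the pools differed with genotype as well, and those of others did not. The counts of markers called below stand beside 17.3% of all genes that rose and 12.5% that fell. Summed CPM of 8 pregranulosa markers was 1015.0 to 1089.9 in control and 719.4 to 908.6 in cKO libraries, and 7 of the 8 fell. The 13 germ cell markers summed to 985.6 to 1296.9 CPM in control and 958.1 to 1514.6 CPM in cKO libraries, with 4 higher and 3 lower. Of 8 tested macrophage markers, 5 rose (38.8 to 49.5 against 52.6 to 68.6 CPM over the 9 listed). None of 7 stroma and none of 7 endothelium markers was called, and by unadjusted p below 0.05 there were 0 and 1. Fetal liver markers summed to 1.78 to 4.77 CPM in control and 5.05 to 34.9 CPM in cKO libraries, with *Alb* and *Afp* higher and *Fgb* and *Serpina1a* at no more than 3 reads in any library. The cKO libraries with the most of these were 3 (34.9 CPM) and 1 (16.6 CPM). Without cKO library 3, 10 of the 30 genes were called, and without cKO library 1, 15. The shares of all genes called in these fits were 23.3% and 34.9%, against 29.8% with all 8 libraries. Without cKO library 2 or 4 the shares of all genes were 21.6% and 23.3%. The steroidogenic markers summed to 42.3 to 48.5 CPM in control and 25.1 to 43.6 CPM in cKO libraries, with *Insl3*, *Hsd17b3* and *Cyp19a1* at no more than 3 reads in any library. Of the 4 steroidogenic markers tested, 1 fell and was a DEG, *Hsd3b1* (Log2FC −0.63, FDR 0.00561). Adrenal markers stayed at 1.86 to 2.55 and 1.19 to 2.51 CPM. Of the 5 mesonephros markers, 1 fell, *Emx2* (Log2FC −0.26, FDR 0.0202), the most abundant at 119.2 CPM in control. The others, *Pax8*, *Lhx1*, *Pax2* and *Cdh16*, were at 1.17 to 15.3 CPM in control and were not called. Of the 4 erythroid markers tested, 1 fell, *Hbb-y* (−0.30, FDR 0.0326). The erythroid genes *Hba-a1*, *Hba-a2*, *Hbb-bt* and *Hbb-bs* had 0 counts in every library. The part of these cell types in the differences of the sterol genes was not tested.

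The libraries held 10622684 to 15365052 counts in control and 8562961 to 14887102 in cKO ovaries, and between 55 and 10653 of them fell on any 1 of the 30 genes in any 1 library. *Rn45s*, the ribosomal RNA precursor, took 13.1% to 16.7%. *Bmpr1a* itself measured 199.5, 236.5, 220.5 and 215.5 CPM in control and 184.9, 194.7, 189.8 and 209.1 CPM in cKO libraries. The genotypes overlapped, and the Log2FC was −0.16 ± 0.064 (SE; FDR 0.0692). The count covers the whole gene in all cells of the ovary and so does not check the deletion in germ cells. Beside the overlaps named above, exons of *Hmgcs1*, *Idi1* and *Lss* overlap non-coding or predicted genes on the opposite strand. Those of *Fdps* overlap *Gm43738* on the same strand over 26.7% of their length. Exons of *Srebf1* and *Scd2* overlap the small genes *Mir6922* and *Mir5114* on their own strand.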

How the data were processed

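Whole E14.5 ovaries were measured by RNA-Seq from directional, paired-end libraries. Per the submitters' processing notes and the study's methods, the authors trimmed reads with Trimmomatic 0.39, checked them with FastQC 0.11.9, and mapped and counted them with STAR 2.5.2 on mm10. They deposited the counts per gene symbol, 1 file per library, as whole numbers without normalization. The annotation and strand setting of the counting are not given in the sources used here, so reads from overlapping genes may be split or shared. A deposited table of CPM held the same counts divided by 1 factor per library and was not used.

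From the counts, filterByExpr chose the genes and TMM scaled the libraries. Genotype was the only term of the model, tested in R 4.3.3 by edgeR 4.0.16 (quasi-likelihood F test, two-sided, Benjamini-Hochberg adjustment over 14249 genes, no covariate, all 8 libraries). FDR below 0.05 was a call, and a DEG also had an absolute Log2FC above 0.5. SE is the absolute Log2FC over the square root of F, with 95% intervals from the same fit. Libraries are separate pools of embryos. CPM used TMM library sizes, and exon lengths were unions of GENCODE vM21 exons. Depth was 8562961 to 15365052 counts, and 3 counts in a library correspond to 0.189 to 0.358 CPM. Replicate numbers are shared between genotypes, and nothing in the sources used here ties same-numbered libraries to 1 litter or batch, so the model had no block.

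The genes, the related lists and the markers were chosen with earlier results of these data known. All 30 genes are named, with the value of each library for those called, those above 0.3 in absolute Log2FC and the 5 most abundant. From each related list the DEGs and up to 5 further calls by FDR are named. Some genes of these lists are not reported here and were left out of their counts. The alternatives were DESeq2 1.42.0, limma-voom (limma 3.58.1), the likelihood ratio test, scaling by RLE, by germ cell markers or by library size, a low-count limit of CPM above 1 in 4 libraries, no such limit, the replicate block, each library left out, and, added after seeing the data, the counts without *Rn45s*. The script was tested on simulated data.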

Additional observations from a re-analysis of the deposited data

Results flagged for a closer look

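In each genotype the 4 libraries of each of the 30 genes were checked for a library set apart, by the gap to its nearest neighbour over the whole range (Dixon's ratio against its 95% critical value). In 6 of 60 groups a library passed this limit, where chance gives about 1 in 20. In *Lbr* the ratio was 0.966, with cKO library 1 at 137.7 CPM and the others at 168.2 to 169.3 CPM, and the Log2FC without it was 0.76. For *Idi1* it was 0.927, again with cKO library 1 low (19.2 against 25.2 to 25.6 CPM). In *Tm7sf2* cKO library 1 was low as well (6.56 against 8.85 to 9.28 CPM, ratio 0.842). *Fads1* met the limit in both genotypes at 0.936, with control library 3 low (128.9 against 133.4 to 133.7 CPM) and cKO library 2 high (126.1 against 115.4 to 116.1 CPM). The last was *Sqle*, where control library 4 was low (67.0 against 74.9 to 76.4 CPM, ratio 0.841). In 3 of the 6 groups the library set apart was cKO library 1, the shallowest, and the part of depth was not tested.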

How the results depend on the processing

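With germ cell marker scaling, 1163 of all genes were called, 1 of the 30 genes (1 higher, 0 lower, 1 DEG, median Log2FC 0.11) and 4 of the related lists, and *Hsd17b7* turned to −0.016; with library size alone it turned to −0.018. The germ cell markers themselves spread widely among libraries, and the cause of the loss was not tested. Leaving out 1 library gave 10 to 15 calls among the 30 genes, 9 to 12 higher, 1 to 3 lower, 1 to 4 DEGs and a median of 0.13 to 0.20, with 1288 to 1627 DEGs and 3101 to 5038 calls over all genes and 12 to 20 calls in the related lists. The fewest lower calls came without control library 1 or cKO library 3. Over these fits the Log2FC ran from −0.002 to 0.17 for *Fdps*, −0.012 to 0.097 for *Hsd17b7* and −0.001 to 0.14 for *Nsdhl*, none of them called. With the replicate number as a block, 16 of the 30 genes were called (13 higher, 3 lower), *Ebp* being added (FDR 0.0486), and 33.5% of all genes; deviations of same-numbered libraries correlated at 0.198, 0.161, 0.108 and −0.0871. Both libraries 1, both libraries 2 and cKO library 3 correlated best with their own number and the 3 others did not, so pairing was not established. The other settings called 14 to 16 of the 30 genes, with *Scd1* lost under DESeq2, RLE, library size and no filter. Of all genes, these settings called from 19.9% (DESeq2) to 32.1% (likelihood ratio test). The shares under DESeq2 and no filter (21.9%) are of 20169 genes. Depth limits the genes of few reads most, such as *Tm7sf2*, *Pmvk* and *Ebp*.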
